A study of Mus musculus with 6 samples.

Results

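The mitochondrial respiratory chain genes encode the nuclear-made subunits of complexes I to V, together with cytochrome c and a few assembly factors that share their names. Their transcripts were followed in 3 control and 3 mutant samples of mouse duodenum. Genes were taken by name: those beginning with Nduf, Uqcr, Cox4 to Cox8 or Atp5, together with Sdha, Sdhb, Sdhc, Sdhd, Cycs and Cyc1. A level of at least 0.5 FPKM (fragments scaled to transcript length and to library depth) was required in at least 3 of the 6 libraries. Of 92 names that matched, 89 passed, out of 13596 gene models that passed the same minimum and 23699 models in all. Complex I contributed 37 genes, complex II 4, complex III with cytochrome c 10, complex IV 16 and complex V 15. The other 7 were the assembly factors Ndufaf1 to Ndufaf4, the gene names Atp5s and Atp5sl, and Cox4nb. Cox4nb (also known as Emc8) is named after its neighbour Cox4i1, which begins 177 bases away, and it encodes a subunit of a complex of the endoplasmic reticulum and no respiratory chain subunit.

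Controls were Nkx2.2flox/+ mice and carried 1 floxed allele of the gene. Mutants were Nkx2.2flox/flox; Villin-Cre/+, and mutant 3 also carried Rosa26Tomato/+. Villin-Cre acts in the intestinal epithelium, so muscle, immune cells and nerves of the gut wall keep the floxed gene. All mice were 6 weeks old and of mixed background, and RNA came from the 2 cm of duodenum next to the stomach. The labels do not say whether the samples were separate animals, so the p-values below measure the spread between these samples.

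The respiratory chain sits in the inner mitochondrial membrane. Complex I takes electrons from NADH and complex II from succinate; complex III passes them to cytochrome c and complex IV on to oxygen. Complexes I, III and IV pump protons, and complex V, the ATP synthase, uses the gradient to make ATP. Absorptive enterocytes are rich in mitochondria, since nutrient uptake runs on ion gradients that ATP maintains. Several complex IV subunits exist in alternative forms, some known best from heart and skeletal muscle. The subunits encoded in mitochondrial DNA had no gene model in these tables and were not analysed here.

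The libraries held 26.3 M, 21.8 M and 21.5 M fragments in controls 1, 2 and 3, and 21.3 M, 23.8 M and 21.0 M in mutants 1, 2 and 3. Pairwise correlations between libraries ran from 0.963 to 0.987 across gene models, which are not independent replicates. Control 3 and mutant 3 stood apart from the other libraries. Reg3b, an antimicrobial lectin of the epithelium, was at 42934 FPKM in control 3 and 47743 in mutant 3, against 207 to 5823 in the others. The 12 enterocyte markers summed to 18720 FPKM in control 3 and 22790 in mutant 3, against 36820 to 47220 in the others. Smooth muscle markers summed to 975 and 772 FPKM in these libraries, against 488 to 591. The targeted gene, Nkx2-2, was at 1.13, 1.32 and 0.779 FPKM in controls and 1.10, 0.736 and 0.221 in mutants, so the groups overlapped (log2 change -0.47, SE 0.30, limma adjusted p = 0.999). FPKM over the whole gene model do not isolate a floxed part.

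Respiratory chain transcripts as a set were modestly higher in the mutants, by less than the spread of the controls, and no single gene passed the test. The mean log2 level was higher in mutants in 82 of the 89 genes, against 44.2% of all genes tested. The median log2 change was 0.21, a fold of 1.16, against -0.02 over all genes; the SD of the 3 control libraries' medians was 0.22. With limma on log2(FPKM + 0.5) and Benjamini-Hochberg adjustment over all genes, 0 of the 89 passed an adjusted p of 0.05. Over all genes 3 passed (0.0221%). At an unadjusted limma p under 0.05, 3 of the 89 differed (Ndufa1, Ndufa3 and Cox8b), against 3.43% of all genes, a share near the background. Cox8b passed the FPKM minimum through its controls only, so the filter itself favoured a lower mutant level. With a minimum of 1 FPKM, 2 of 87 genes differed (3.34% of all genes). The authors' deposited table, made with DESeq, listed all 89 genes; 81 had a fold change above 1, the median log2 fold change was 0.23, and 0 had an adjusted p under 0.05 (0.14% of all genes in that table). The lowest p-values of chain genes in the authors' deposited table were 0.0312 for Ndufa3 and 0.0332 for Ndufa1.

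**Figure D1:**
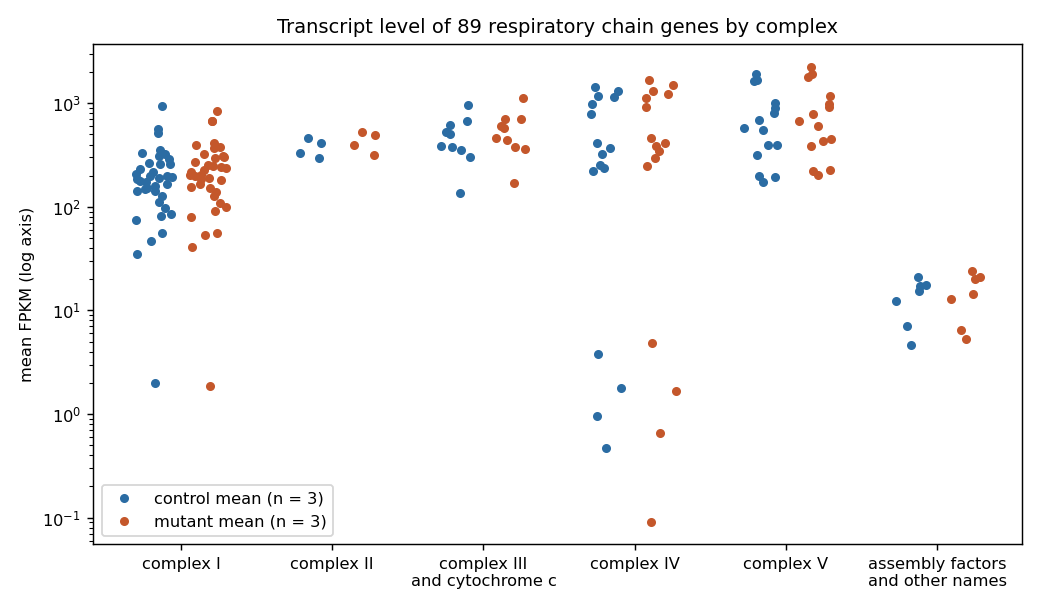
Mean FPKM (log axis) of the 89 genes by complex, with 1 point per gene for the 3 controls (blue) and 1 for the 3 mutants (orange). In both groups 5 subunit genes sit under 10 FPKM, and the other subunit genes lie well above it.

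The levels themselves were high. The 89 genes made up 4.73%, 4.60% and 5.61% of all FPKM in controls 1, 2 and 3, and 5.39%, 5.64% and 5.85% in mutants 1, 2 and 3. Control 3 lay above mutant 1 on this measure and the groups overlapped. FPKM are scaled per length, but comparisons between genes are approximate. Atp5e (414 bases) and Atp5a1 (2431 bases) had mean levels of 866 and 949 FPKM. Their mean normalized counts in the authors' deposited table were 3966 and 47438, further apart than lengths and FPKM account for. On the FPKM scale the median over the 6 libraries was 203 for complex I, 409 for complex II and 482 for complex III. It was 375 for complex IV and 624 for complex V. The assembly factors and other names had a median of 14.9 FPKM. Among the 7 genes with a mean under 10 FPKM, 3 were higher in mutants, and among the 82 above it 79 were.

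The size of the difference was alike across complexes. The median log2 change was 0.22 for complex I (34 of 37 genes with a higher mutant mean), 0.22 for complex II (4 of 4) and 0.21 for complex III with cytochrome c (10 of 10). It was 0.22 for complex IV (14 of 16), 0.21 for complex V (15 of 15) and 0.17 for the assembly factors and other names (5 of 7). The lower and upper quartiles over the 89 genes were 0.15 and 0.25, while the median SE of a single gene was 0.16. Differences between complexes were not tested. Highly expressed genes in general leaned the same way: of the 1058 genes with a mean of at least 100 FPKM, 62.67% were higher in mutants, with a median log2 change of 0.05. The 71 chain genes above that level had a median of 0.22, and 69 of them were higher.

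**Figure D2:**
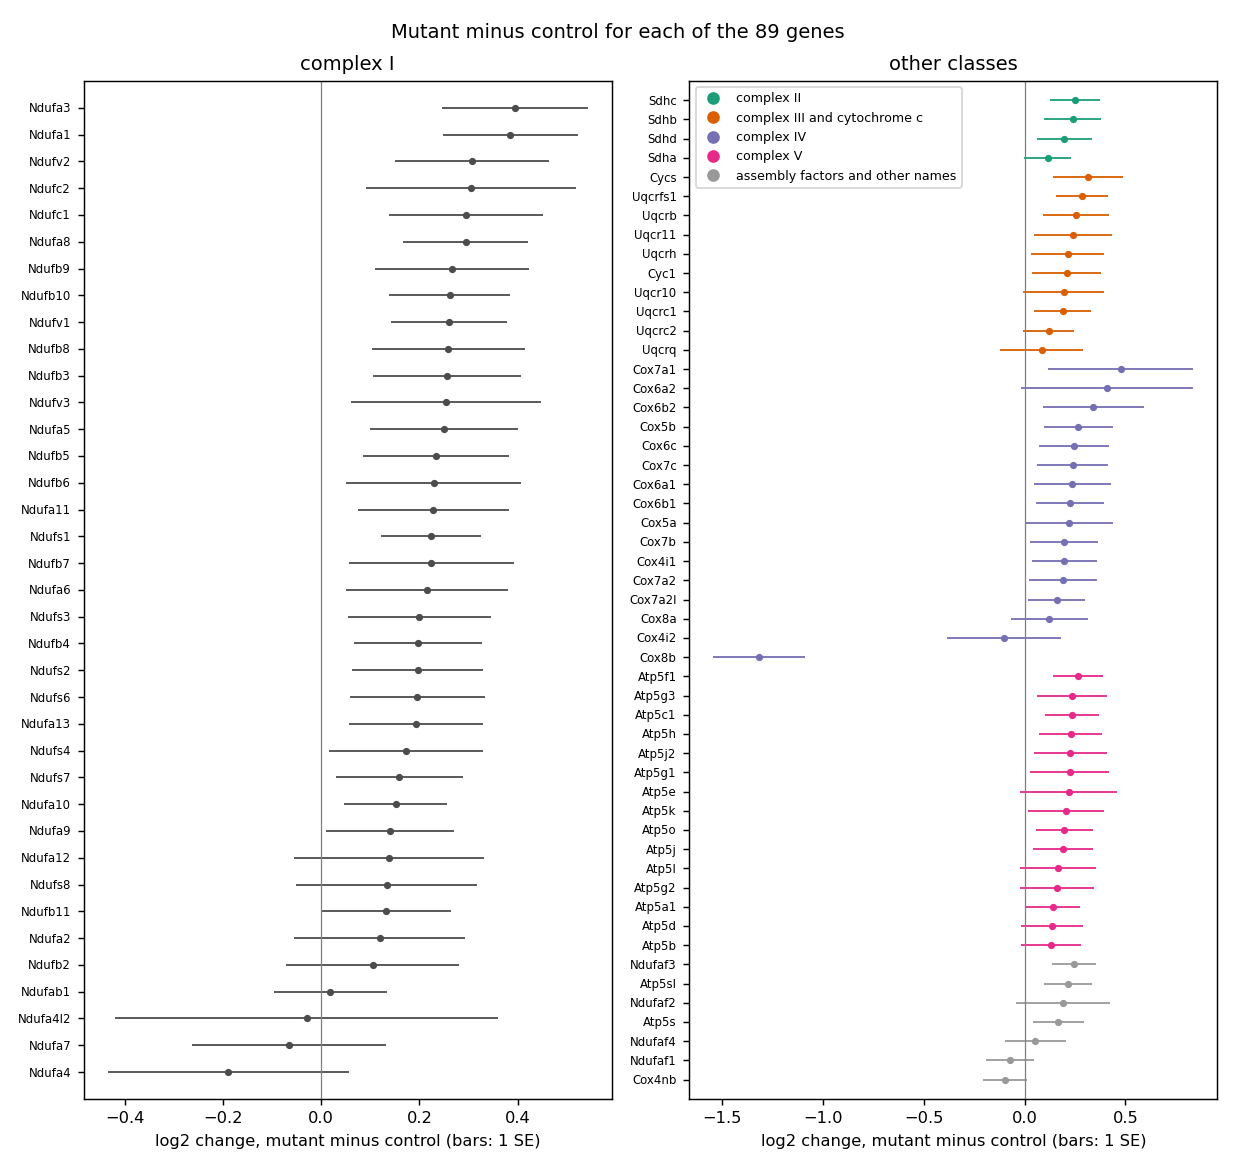
Log2 change, mutant minus control, of each of the 89 genes (points) with 1 SE from limma (bars), complex I on the left and the other classes on the right, on different horizontal scales. Most genes lie between 0.1 and 0.3 with bars of about the same size as the change, and Cox8b lies far to the left at -1.32.

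Control 3 held most of the overlap between the groups. It was the highest of the controls in 83 of the 89 genes, against 40.7% of all genes tested. Relative to the control mean, the median of the 89 genes was -0.08, -0.16 and 0.25 (log2) in controls 1, 2 and 3, and 0.13, 0.18 and 0.30 in mutants 1, 2 and 3. Both libraries numbered 3 were high and controls 1 and 2 were low, with mutants 1 and 2 between them. All 3 mutants lay above all 3 controls in 16 genes (4.05% of all genes did). These were Ndufa1, Ndufa3, Ndufa8, Ndufa10, Ndufb10, Ndufs1, Ndufv1 and Ndufaf3; Sdha and Sdhc; Uqcrfs1; and Atp5a1, Atp5b, Atp5c1, Atp5f1 and Atp5g3. None was in complex IV. All mutants lay below all controls in 1 gene, Cox8b (3.71% of all genes did), which passed the FPKM minimum through its controls only.

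The difference was smaller between the libraries numbered 3 than between the others. Mutant minus control, the median over the 89 genes was 0.22 for the libraries numbered 1, 0.34 for those numbered 2 and 0.07 for those numbered 3, and 65 genes were higher in the mutant of each pair (14.2% of all genes were). Without both libraries numbered 3, a comparison chosen after seeing the data, the median log2 change was 0.29. Then 57 of the 89 genes had an unadjusted limma p under 0.05, 55 of them higher and 2 lower in mutants, against 5.87% of all genes higher and 6.33% lower. None of the 89 passed the adjusted threshold there, although 200 of all genes did (1.47%); Ndufa1 had the lowest adjusted p (0.0592). Leaving out control 3 alone gave an unadjusted p under 0.05 to 43 of the 89 (4.84% of all genes), and leaving out control 2 alone to 1 (2.27%). Leaving out control 1 gave it to 2 (2.57%), mutant 1 to 1 (2.57%), mutant 2 to 1 (1.88%) and mutant 3 to 3 (10.4%). With the replicate number as a block, 22 of the 89 had an unadjusted p under 0.05 (6.76% of all genes), and 0 passed the adjusted threshold (0.162% of all genes, 22 genes).

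**Figure D3:**
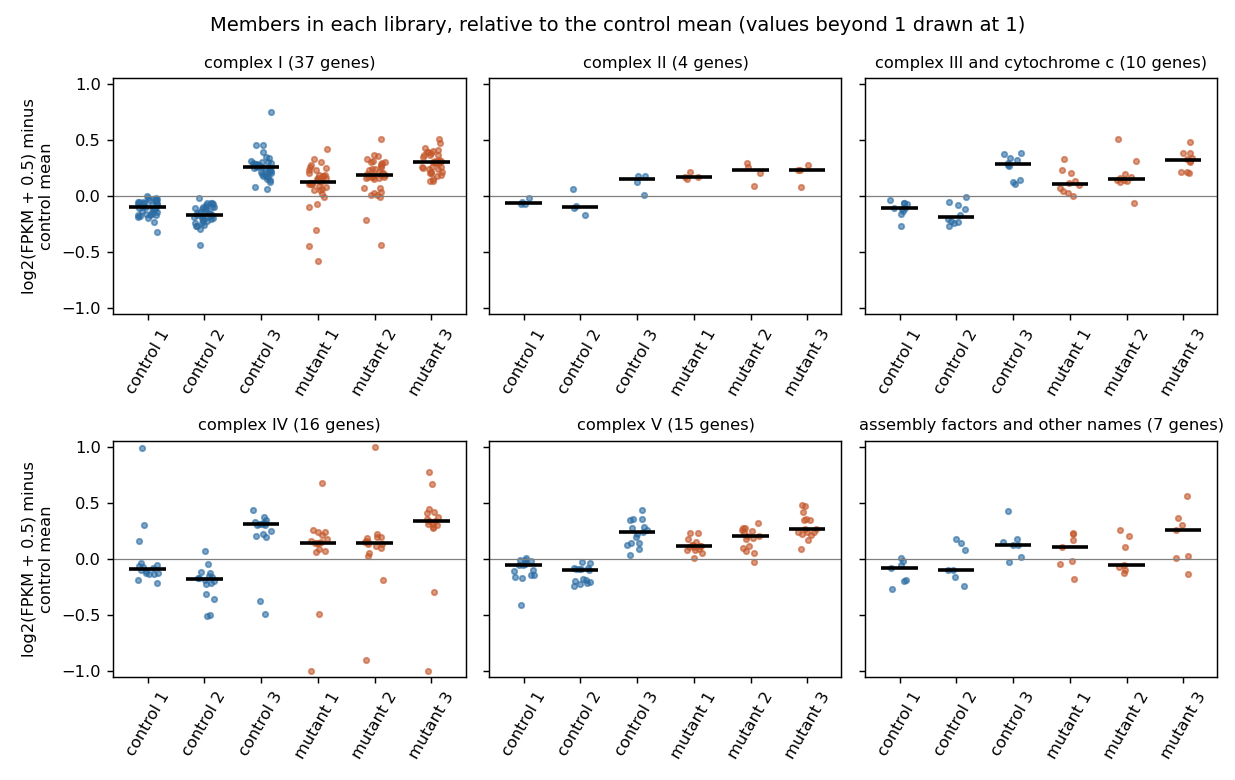
Each gene's log2(FPKM + 0.5) minus its control mean in each library, 1 panel per class; points are genes (controls blue, mutants orange), black bars are medians, and values beyond 1 are drawn at 1. In complexes I, III, IV and V the median of control 3 lies above those of mutants 1 and 2, while controls 1 and 2 lie under 0.

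Transcript length moves with the libraries numbered 3 as well. The dominant transcripts of the 89 genes had a median length of 692 bases, against 2637 over all genes tested, and 59 were under 1000 bases. Over all 1333 tested genes under 1000 bases, the median log2 level above the control mean was 0.18 in control 3 and 0.19 in mutant 3, while it was -0.01 in mutant 1 and -0.07 in mutant 2. The part of length or of tissue makeup in the levels of these libraries was not tested. Chain genes of at least 1000 bases (30) had a median log2 change of 0.20, and the shorter ones 0.22. Copies of a transcript elsewhere in the genome can share its reads: 20 of the 89 genes had at least 1 (identity of 95% or more across 50% or more of its length), Atp5l with 10 and Atp5h with 4, so their levels are uncertain. Genes with such a copy had a median log2 change of 0.20 and those with none 0.21. The loci of 10 chain genes overlapped a second gene model, among them Ndufa2, Ndufa13, Ndufb11, Atp5b and Atp5f1. Reads of overlapping models cannot be told apart unless the counting used strand, which the sources used here do not state.

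Sequence motifs, which the choice by name did not use, were counted in the promoters of chain genes, with no test. NRF1 and the ETS family factor GABP, known as NRF2, are regulators of many nuclear respiratory genes, and YY1 is another. Windows from 250 bases before to 50 after the start, from RefSeq on GRCm38.p6, were found for 73 of the 89 genes. The NRF1 motif (GCGC, A, any base, GCGC), searched like the others on both strands, occurred in 17 of the 73 (23.3%), against 7.17% of all protein-coding genes. The ETS motif CCGGAAG occurred in 17 (23.3%) against 12.9%, and the YY1 motif AAGATGGC in 11 (15.1%) against 3.57%. At least 1 of the 3 was present in 39 (53.4%) against 21.0%, and 34 held none. The shares differed between complexes: the NRF1 motif was in 6 of 14 complex V genes and in 1 of 12 of complex IV (8.33%), that gene being Cox6a1. The ETS motif was in 12.5% of complex I genes, close to the share of all genes, and the YY1 motif in none of those of complexes II, III and IV. The TATA motif TATAAA went the other way, in 6 (8.22%) against 14.8%. These matches are letters in a window and no evidence of binding. The chain genes had to pass the FPKM minimum, while the protein-coding genes beside them were neither filtered nor matched by expression. Sdhd, Cox6a1, Atp5h and Atp5k each hold both the NRF1 and the ETS motif, Atp5k not with both before the start. Shown are the stretches with both in the 250 bases before the start. They are those of Sdhd and Cox6a1, the most abundant genes of complexes II and IV, and Atp5h, the least abundant of complex V. Cox7a1, which followed another pattern across libraries, is shown with them and holds none of the 3; this is not particular to it, since it is 1 of the 34, as is Cox7a2. Capitals mark NRF1 matches and, on the opposite strand, ETS matches, which here read CTTCCGG, and each stretch reads in the direction of its gene. The stretches are chr9:50603879-50603938 (minus strand), chr5:115348959-115349130 (minus), chr11:115419941-115420070 (minus) and chr7:30184071-30184170 (plus), in the order printed.
Sdhd: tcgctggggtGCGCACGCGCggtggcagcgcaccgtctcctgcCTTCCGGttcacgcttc
Cox6a1: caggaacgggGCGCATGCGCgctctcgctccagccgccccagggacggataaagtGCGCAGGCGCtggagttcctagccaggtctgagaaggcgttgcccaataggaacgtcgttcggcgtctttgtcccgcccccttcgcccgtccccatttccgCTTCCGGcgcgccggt
Atp5h: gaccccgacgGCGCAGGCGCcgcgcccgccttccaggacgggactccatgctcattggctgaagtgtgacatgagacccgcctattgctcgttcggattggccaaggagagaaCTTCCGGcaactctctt
Cox7a1: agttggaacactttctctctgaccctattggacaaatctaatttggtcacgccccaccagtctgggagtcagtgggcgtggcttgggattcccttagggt

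Complex I, the NADH dehydrogenase, held the 2 subunit genes with the lowest p among the higher ones. Ndufa1 (mm9 chrX:34727584-34731233), an accessory subunit of the membrane arm, was at 171, 180 and 217 FPKM in controls and 237, 269 and 233 in mutants. Every mutant was above every control. Its log2 change was 0.39 (SE 0.14, limma adjusted p = 0.999), and 0.53 without both libraries numbered 3. Ndufa3 (chr7:3568975-3571763), another accessory subunit, was at 495, 461 and 601 FPKM in controls and 691, 667 and 675 in mutants. The groups were again apart, and the mutants lay within a narrow range (mean 678, SD 11.9, n = 3). Its log2 change was 0.39 (SE 0.15, limma adjusted p = 0.999). Ndufs1, which carries iron-sulfur clusters of the electron path, was at 84.3, 81.4 and 90.0 FPKM in controls and 104, 101 and 94.6 in mutants. Ndufv1, the subunit that binds NADH, was at 154, 145 and 175 FPKM in controls and 189, 194 and 184 in mutants. For both catalytic subunits all mutants lay above all controls, with log2 changes of 0.22 (SE 0.10) and 0.26 (SE 0.12), neither called. The marker Ndufa9 (chr6:126771881-126799162), an accessory subunit at the junction of the arms, was at 140, 126 and 163 FPKM in controls and 148, 161 and 162 in mutants, so control 3 was above every mutant.

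Of the complex I names, 3 had a lower mutant mean: Ndufa4, Ndufa4l2 and Ndufa7. Ndufa4 (chr6:11850373-11857446) was the most abundant gene under a complex I name; its protein is now placed in complex IV. It was at 819, 869 and 1121 FPKM in controls and 682, 688 and 1148 in mutants. Mutants 1 and 2 were below every control and mutant 3 above them all, with a log2 change of -0.19 (SE 0.25, limma adjusted p = 0.999), and -0.30 (SE 0.11, adjusted p = 0.334) without both libraries numbered 3. Its relative Ndufa4l2, known as a gene induced at low oxygen, was the least abundant, at 1.37, 1.22 and 3.41 FPKM in controls and 1.06, 1.85 and 2.73 in mutants. Ndufa4l2 was highest in both libraries numbered 3, and its log2 change of -0.03 turned positive under 4 alternatives, quantile normalization and leaving out libraries among them. Ndufa7 had a log2 change of -0.07 (SE 0.20). Ndufab1, the acyl carrier protein that also serves lipoic acid synthesis, was higher by mean but close to 0, at 0.02 (SE 0.11). Ndufs5, a name that matched, was not a member: it was at 7.70 FPKM in control 2 and near 0 in the others. The model BC002163 overlaps its place on chromosome 4, at 65.3, 50.8 and 37.3 FPKM in controls and 74.9, 87.3 and 42.0 in mutants. Another BC002163 model, on chromosome 16, was at 196, 189 and 266 FPKM in controls and 202, 229 and 286 in mutants. Ndufs5 has 1 near-identical copy elsewhere in the genome, so its level is uncertain.

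Complex II, succinate dehydrogenase, is also an enzyme of the citric acid cycle. Sdha, its flavoprotein, was at 279, 307 and 295 FPKM in controls and 331, 313 and 310 in mutants. All mutants were above all controls, by a small margin (log2 change 0.11, SE 0.12, limma adjusted p = 0.999). Sdhc, a membrane anchor, was at 322, 314 and 364 FPKM in controls and 385, 409 and 390 in mutants, again without overlap (log2 change 0.25, SE 0.12). Sdhd, the other anchor and the most abundant of the 4, was at 442, 433 and 526 FPKM in controls and 517, 537 and 548 in mutants, so that control 3 lay among the mutants. Sdhb, the iron-sulfur subunit, had a log2 change of 0.24 (SE 0.14) with the same overlap.

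Complex III and cytochrome c were higher in mutants in all 10 genes by mean (44.2% of all genes were). In 1 of them all mutants lay above all controls (4.05% of all genes did). Uqcrfs1, the Rieske iron-sulfur protein, was at 368, 363 and 418 FPKM in controls and 480, 475 and 443 in mutants (log2 change 0.29, SE 0.13). Cycs, the somatic cytochrome c, was at 126, 116 and 169 FPKM in controls and 156, 193 and 157 in mutants, with control 3 above 2 of the mutants; its log2 change was 0.31 (SE 0.17, limma adjusted p = 0.999). The hinge protein gene Uqcrh, the most abundant of the group, was at 874, 857 and 1179 FPKM in controls and 1053, 1073 and 1217 in mutants. Here too control 3 lay between the mutants (log2 change 0.21, SE 0.18).

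In complex IV, cytochrome c oxidase, the common forms of each subunit exceeded the alternative forms by FPKM in every library, with an exception. Cox7a1 exceeded Cox7a2 by FPKM in mutant 2. Cox4i1 (chr8:123192190-123198109), the marker of this complex, was at 1128, 1041 and 1322 FPKM in controls and 1287, 1271 and 1425 in mutants; control 3 lay between the mutants (log2 change 0.20, SE 0.16). Its alternative Cox4i2, known from lung and low oxygen, took 0.0847% to 0.191% of the summed FPKM of both. Cox6a1 was the most abundant gene of the complex, at 1330, 1229 and 1782 FPKM in controls and 1573, 1663 and 1823 in mutants (log2 change 0.24, SE 0.19). The muscle form Cox6a2 was at most at 1.20 FPKM. Cox6b2, the testis form, took 0.209% to 0.378% of the Cox6b1 and Cox6b2 sum. Cox7b2 and Cox8c, also best known from testis, did not pass the minimum: Cox8c was listed at 0 in all libraries and Cox7b2 in all but mutant 1 (0.141 FPKM).

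Cox7a1, the form known from heart and skeletal muscle, was abundant in the duodenum and followed a pattern unlike that of most chain genes. Cox7a1 (chr7:30969190-30971049) was at 285, 243 and 178 FPKM in controls and 370, 477 and 188 in mutants. Control 3 and mutant 3 were the lowest, the reverse of most chain genes, and Cox7a1 was the only gene of the 89 in which control 3 was the lowest control. Outside the 89, the assembly factor Sco2 and the BC002163 model on chromosome 4 were also lowest in control 3 and mutant 3. Sco2 was at 61.1, 59.1 and 18.3 FPKM in controls and 65.8, 74.4 and 26.3 in mutants. Cox7a2, the common form, was at 371, 360 and 498 FPKM in controls and 446, 434 and 512 in mutants. Cox7a1 therefore made up 43.4%, 40.3% and 26.3% of the Cox7a1 and Cox7a2 sum in controls and 45.3%, 52.4% and 26.9% in mutants. In the authors' deposited table these genes had means of 1050 and 5340 normalized counts. Their transcripts are 366 and 754 bases long, so the size of this share is uncertain. With a pseudocount of 0.5 the log2 change of Cox7a1 was the largest positive one of the 89, at 0.48 (SE 0.36, limma adjusted p = 0.999); with a pseudocount of 0.1, Cox6a2 was above it (0.93 against 0.48), and with TPM scaling also (0.50 against 0.46). The change of Cox7a1 was 0.67 (SE 0.15, adjusted p = 0.0779) without both libraries numbered 3. Markers of striated muscle summed to 11.8, 11.3 and 12.6 FPKM in controls and 11.8, 16.5 and 12.7 in mutants, with Myh4 at 0. Of the 5 past the minimum, control 3 was the lowest control in 1, Acta1. It was at 1.99, 1.84 and 1.56 FPKM in controls and 2.73, 6.01 and 1.87 in mutants, highest in mutant 2 like Cox7a1. Enterocyte markers were lowest in the same libraries as Cox7a1, control 3 and mutant 3. Smooth muscle markers were highest in those libraries. Cidec, the one adipocyte marker past the minimum, was also lowest in control 3 and mutant 3. It was at 77.1 and 85.7 FPKM there, against 111 to 146 in the others. All 6 adipocyte names together summed to 77.5 and 86.6 FPKM there, so that list was almost wholly Cidec, with its other names near 0. Exocrine pancreas markers were lowest of their group in these libraries as well, with sums of 11550 and 2671 FPKM. The part of any of these cell types in the level of Cox7a1 was not tested. In tissue RNA of this kind, fewer cells of a type and less RNA per cell cannot be told apart.

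Cox8b, another muscle form, was the gene with the largest negative change. The controls held 0.746, 0.899 and 1.22 FPKM of it, and the mutants 0, 0.274 and 0. Every mutant was below every control, but the gene passed the minimum through its controls only, and at these levels it rests on few fragments. Its log2 change was -1.32 (SE 0.23, limma adjusted p = 0.368, and 0.0797 with the block), and it moved between -2.74 and -0.84 with pseudocounts of 0.1 and 1. The common form Cox8a, at 998 to 1426 FPKM, had a log2 change of 0.12 (SE 0.19).

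**Figure D4:**
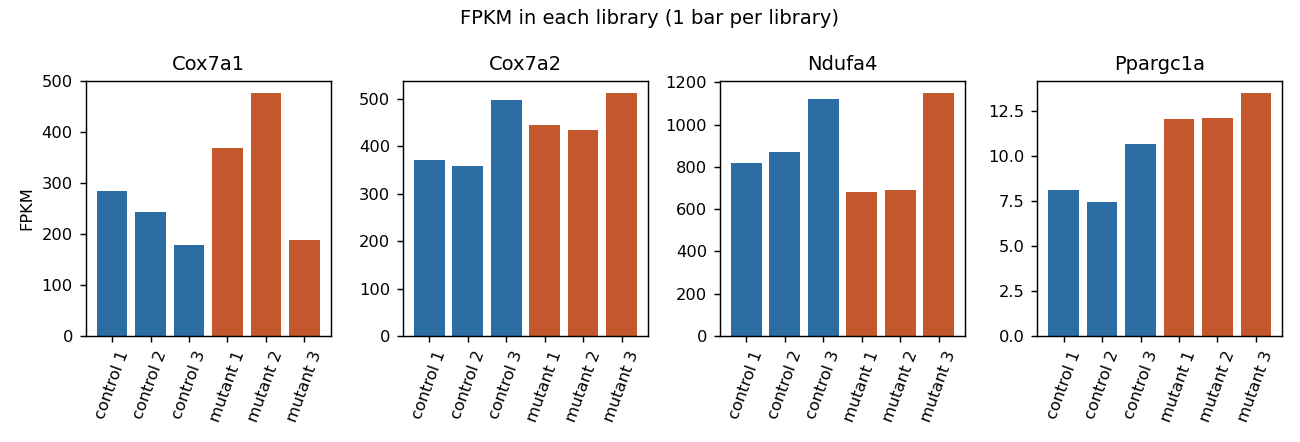
FPKM in each library (1 bar per library; controls blue, mutants orange) for Cox7a1, Cox7a2, Ndufa4 and the regulator Ppargc1a. Cox7a1 is lowest in control 3 and mutant 3, where Cox7a2 and Ndufa4 are highest, and Ppargc1a is higher in each mutant than in any control.

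Complex V genes were higher in mutants in 15 of 15 by mean (44.2% of all genes were). In 5 of them all mutants lay above all controls (4.05% of all genes did). Of the 1058 genes with a mean of at least 100 FPKM, 62.67% were higher by mean, and in 82 all mutants lay above all controls. Atp5b (chr10:127520363-127527444), the catalytic beta subunit, was at 1648, 1616 and 1698 FPKM in controls and 1785, 1902 and 1753 in mutants. Its groups were apart, with a log2 change of 0.13 (SE 0.15, limma adjusted p = 0.999). Atp5c1, the gamma subunit of the rotor, was at 557, 540 and 625 FPKM in controls and 650, 694 and 678 in mutants (log2 change 0.23, SE 0.13). Atp5f1, of the peripheral stalk, had the largest change of the complex: 308, 299 and 351 FPKM in controls and 375, 398 and 376 in mutants, a log2 change of 0.26 (SE 0.13, limma adjusted p = 0.999). These 3 genes were each higher in all mutants than in any control. Atp5g1, Atp5g2 and Atp5g3 encode the same mature c subunit of the membrane ring. By FPKM, Atp5g3 was the most abundant of the 89 genes, at 1887, 1666 and 2228 in controls and 2243, 2280 and 2239 in mutants. Its share of the 3 genes' summed FPKM was 83.2% ± 1.33 in controls and 83.5% ± 1.97 in mutants (SD, n = 3), which differed by less than the spread of the replicates. Atp5g2 has 3 near-identical copies elsewhere, and in the authors' deposited table its mean was 17.3 normalized counts against 1307 for Atp5g1, although their mean FPKM were 210 and 209, so these proportions are uncertain.

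The assembly factors were less uniform. Ndufaf3, which helps to build complex I, was at 17.7, 15.7 and 19.6 FPKM in controls and 20.7, 20.3 and 21.8 in mutants, with no overlap (log2 change 0.25, SE 0.11, limma adjusted p = 0.999). Ndufaf2, the most abundant of them, ran from 17.3 to 27.7 FPKM in controls and from 19.1 to 30.6 in mutants, and was highest in each group in the library numbered 3. Ndufaf1 and Cox4nb had log2 changes of -0.07 (SE 0.12) and -0.10 (SE 0.11). Atp5s, of the lowest mean, was at 4.57, 4.28 and 5.08 FPKM in controls and 5.49, 5.63 and 4.72 in mutants.

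Isoform models were tested in the same way. The 89 genes had 98 isoform models, 82 of the genes with a single one. Of the 95 models that passed the minimum, 0 were called by limma. The lowest adjusted p was 0.717, for Cox8b, which passed the minimum through its controls only. Over all 16213 isoforms tested 1 was called (0.00617%). At an unadjusted limma p under 0.05, 5 of the 95 differed, against 3.79% of all isoforms. Atp5g1 had 2 models, and the shorter one held 8.80% to 10.1% of its FPKM in controls and 8.88% to 11.2% in mutants.

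Other mitochondrial and metabolic genes shared the direction in part. None of the genes in the lists below passed the limma threshold. Of 16 citric acid cycle and pyruvate dehydrogenase genes, 15 had a higher mutant mean (median log2 change 0.14), and their most abundant members, Mdh2 and Cs, had changes of 0.07 (SE 0.18) and 0.09 (SE 0.14). Of 13 glycolysis genes 10 were higher (median 0.18). Ldha, lactate dehydrogenase, and Gapdh led that list by level and had log2 changes of 0.25 (SE 0.16) and 0.24 (SE 0.19). Of 22 carrier, import and membrane organisation genes 15 were higher (median 0.06), with Slc25a5, an ADP/ATP carrier, at 0.12 (SE 0.16) and Slc25a3, the phosphate carrier, at 0.11 (SE 0.15). Mitochondrial ribosomal proteins had a median of 0.01, with 39 of 76 higher, and their most abundant members Mrpl12 and Mrps21 were at 0.07 (SE 0.16) and 0.10 (SE 0.15). Their medians were high in the same libraries numbered 3 as the chain genes (0.14 in control 3 and 0.18 in mutant 3) but not in mutants 1 and 2 (-0.08 and -0.05). Assembly factors whose names lie outside the pattern had a median of 0.04, with 18 of 27 higher; Cox17, a copper chaperone of complex IV, and Cox19 were at 0.27 (SE 0.15) and 0.04 (SE 0.11).

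Regulators of mitochondrial biogenesis were mostly at or under 0, with 5 of 16 higher and a median log2 change of -0.04. Over all genes tested the median was -0.02, near that of this list, and 44.2% were higher. Esrra, a nuclear receptor for respiratory genes and the most abundant of the list, was at 147, 133 and 144 FPKM in controls and 143, 171 and 170 in mutants. Ppargc1a, the coactivator of oxidative metabolism, named here after its values were seen, was at 8.14, 7.47 and 10.7 FPKM in controls and 12.1, 12.1 and 13.5 in mutants. Each mutant was above each control (4.05% of all genes had this), with a log2 change of 0.51 (SE 0.14, limma adjusted p = 0.999). Nrf1, Gabpa and Yy1, whose motifs are described above, had log2 changes of -0.10 (SE 0.12), 0.02 (SE 0.12) and -0.04 (SE 0.11).

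**Figure D5:**
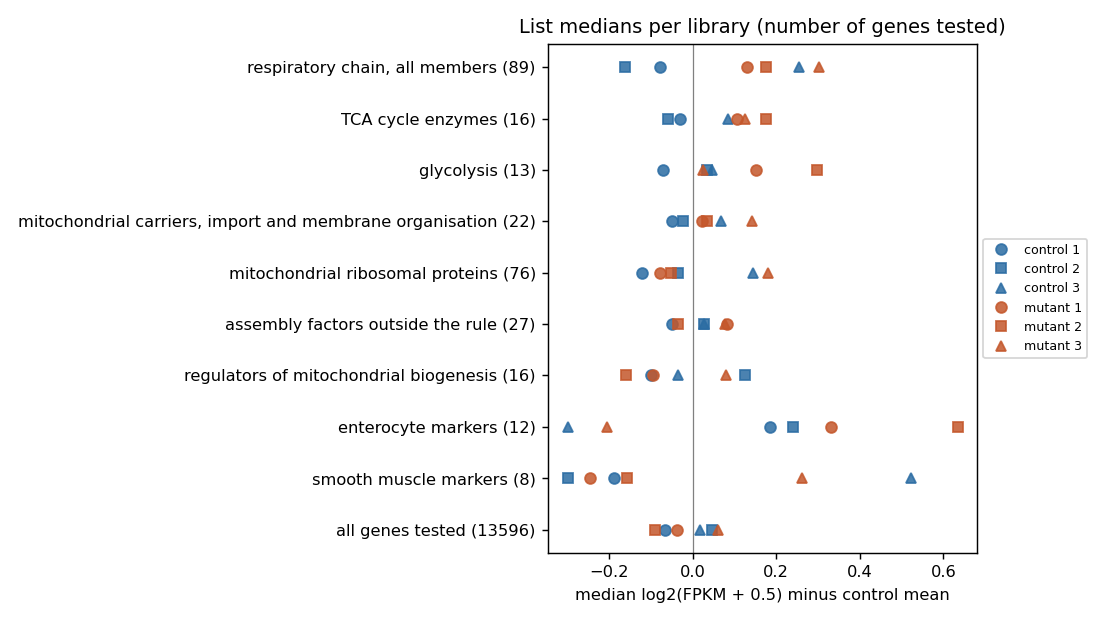
Median log2(FPKM + 0.5) minus the control mean per library (controls blue, mutants orange; circle, square and triangle are libraries 1, 2 and 3) for the 89 genes, other lists and all genes tested. The chain genes have controls 1 and 2 apart from the other 4 libraries, and mitochondrial ribosomal proteins have both libraries numbered 3 apart.

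Markers of other cell types are given beside these values, and none passed the limma threshold. The 12 enterocyte markers had a median log2 change of 0.18, with 10 higher; their summed FPKM ran from 18720 to 38460 in controls and from 22790 to 47220 in mutants. The 10 exocrine pancreas markers, a tissue that adjoins the duodenum, were all lower in mutants by mean, with sums of 11550 to 18530 FPKM in controls and 2671 to 11500 in mutants. The Brunner gland and stomach markers Tff2, Muc6, Tff1, Gkn1 and Gkn2 were also lower in mutants by mean. Tff1, Gkn1 and Gkn2 were high in control 2 only, at 136, 111 and 207 FPKM. Tff2 was at 2096, 6296 and 2379 FPKM in controls and 3639, 855 and 104 in mutants, so the groups overlapped. Crypt proliferation markers had a median of -0.19 (1 of 10 higher), enteric neuron and glia markers -0.23 (0 of 7), smooth muscle markers -0.07 (3 of 8) and immune markers -0.04 (3 of 8). Striated muscle markers had a median of 0.03 (4 of 5), and Cidec, the one adipocyte marker past the minimum, was at 0.13 (SE 0.26). The part of these markers, and so of tissue makeup, in the levels of the chain genes was not tested.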

How the data were processed

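TruSeq libraries of RNA with a RIN above 8 were sequenced, per the labels' protocols. Tools named in the submitters' processing notes are TopHat, Cufflinks, DESeq and CASAVA 1.8.2, and the build is mm9. The authors deposited FPKM per gene and isoform (Cufflinks) and isoform coverage, a signal from which depth was computed, per the file headers. The authors' deposited DESeq table holds each group's mean of normalized counts (a signal), the ratio between groups and its log2, and a p-value before and after adjustment.

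Libraries were grouped by title. The test was limma 3.58.1 (R 4.3.3, statmod 1.5.0) on log2(FPKM + 0.5), with a trended, robust eBayes prior, two-sided, adjusted by Benjamini-Hochberg over all models with 0.5 FPKM or more in 3 libraries, at 0.05. This scale understates changes of low genes. Python 3.11.15, pandas 2.3.3, numpy 2.4.6, matplotlib 3.10.9 and minimap2 2.31-r1302 (transcript copies) were also used. Promoters are from RefSeq GRCm38.p6, gene positions from the files (mm9, 1-based). On simulated data (200 changed genes), 61.6% of genes changed by a log2 of 1 and 89.8% of those changed by 2 were found, with 4.63% false calls. Among isoforms, 38.8% and 76.2% were found, with 3.52% false. The simulated noise was independent between genes, unlike the shared differences of the libraries numbered 3. Changes as small as the chain median of 0.21 were not simulated.

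Same-numbered libraries deviated together (correlations of 0.26, 0.25 and 0.58), so the numbers count as pairs here. The labels do not give this pairing, control 1 also correlated at 0.30 with mutant 2, and it mostly sets the libraries numbered 3 apart.

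The genes and lists were chosen with earlier results of these data known. Named are Ndufa9, Cox4i1 and Atp5b, each class's highest and lowest mean and largest change each way, alternative subunit forms, and the 2 most abundant genes of related lists; other genes were picked after their values were seen. Alternatives were pseudocounts of 0.1 and 1, no filter or 1 FPKM, quantile, upper quartile or TPM scaling, quality weights, a plain eBayes prior, the replicate block, and fewer libraries.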

Additional observations from a re-analysis of the deposited data

How the results depend on the processing

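None of the 89 genes and none of their isoforms was called under any alternative run, and the median log2 change of the 89 genes stayed above 0. It ranged from 0.13 to 0.33 when 1 library was left out (lowest without control 2, highest without control 3), and 77 to 85 genes were higher in mutants. The lowest adjusted p of any chain gene was 0.0592 (Ndufa1, without both libraries numbered 3). For assembly factors and other names, the median ranged from 0.0033 (without mutant 3) to 0.23. Calls over all genes moved from 3 to 1 with no filter and with upper quartile scaling, 19 with library quality weights, 200 without both libraries numbered 3, and 2 to 68 when 1 library was left out (68 without mutant 3, 8 without mutant 1). With the replicate block, which takes the numbers as pairing the samples, 22 genes were called; the block changed no call among the chain genes or their isoforms, and their median stayed at 0.21. Of 31 named genes, 3 changed sign in at least 1 setting: Ndufa4l2, Cox4i2 and Cox6a2, all under 4 FPKM. The cause of these moves was not tested. Levels under about 1 FPKM rest on few fragments, and with 3 libraries a group the SE of a typical chain gene is close to its change.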

Other observations

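A gene outside the name pattern was examined after the values of Ndufa4 were seen. AA467197 (synonyms Nmes1 and mir-147 in RefSeq; mm9 chr2:122463623-122466812) encodes a relative of Ndufa4 known to take its place in complex IV in other cells. It was at 125, 98.0 and 215 FPKM in controls and 525, 514 and 243 in mutants. Each mutant was above each control, and mutant 3 was close to control 3. Its log2 change was 1.54 (SE 0.40, limma adjusted p = 0.999, and 0.793 with the replicate block). Without both libraries numbered 3, a comparison chosen after seeing the data, the log2 change was 2.22 (SE 0.13, adjusted p = 7.3e-05). In the authors' deposited table its log2 fold change was 1.56 with an adjusted p of 0.769. Mutants 1 and 2, the libraries in which AA467197 was highest, were those in which Ndufa4 was lowest, at 682 and 688 FPKM. Among the controls both genes were highest in control 3, AA467197 at 215 FPKM and Ndufa4 at 1121. A link between the levels of these genes was not tested.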
